A study of Mus musculus with 24 samples.

Results

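The olfactory bulb of wild-type mice was compared with the cerebellum, cortex and hippocampus of wild-type mice. The bulb and the 3 other regions each had 3 libraries, so 12 of the 24 libraries of the series were used, chosen by their tissue and genotype labels alone. The series measured poly(A) RNA in dissected regions of C57BL/6 mice that were wild type or lacked the Cdr1as locus, which encodes a circular RNA. All 12 libraries used here carried the wild-type genotype and no treatment is named. Age and sex are not given in the sources used here. The labels do not say whether the 3 libraries of a region came from separate animals, and every p-value therefore rests on the variation among these libraries, which may be technical. Depth was 21.1 M to 36.2 M gene counts per library, with 22.6 M, 27.2 M and 21.1 M in bulb libraries 1, 2 and 3.

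The olfactory bulb is the first relay of smell in the brain. Axons of sensory neurons in the nose end there in glomeruli, on the dendrites of mitral and tufted cells, which send the signal on to the cortex. Most other neurons of the bulb are inhibitory granule and periglomerular cells, and both types are renewed in adult rodents by neuroblasts that migrate in from the wall of the lateral ventricle. Some periglomerular cells make dopamine, and olfactory ensheathing glia wrap the incoming axons.

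Which genes define the bulb? Of 16729 genes tested, 3687 (22%) were higher and 3619 (21.6%) were lower in the bulb than in the mean of the 3 other regions, each region having equal weight, and 43.7% passed in either direction (edgeR quasi-likelihood test, Benjamini-Hochberg adjusted p under 0.05). A mean can be set by 1 region, so a stricter set was formed from genes that passed against each region in turn with a log2 difference of at least 1 in all 3. It held 656 genes that were higher (3.92% of those tested) and 403 that were lower (2.41%). Of the 656 higher genes, 110 had a log2 difference of at least 3 from every region, 570 were protein coding, and 648 were above all 9 other libraries in every bulb library. Of the 403 lower genes, 49 were at least 3 log2 units below every region, 364 were protein coding, and in 384 all bulb libraries lay below all others. Such separation of all bulb libraries was seen upward in 1723 genes (10.3% of those tested) and downward in 1608 (9.61%).

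The bulb libraries stood apart as a group. The second principal component, with 26.4% of the variance of log2 CPM (read counts scaled by library size), placed the bulb libraries between 92.7 and 101 and all other libraries at -9.0 or lower. When libraries were scaled by their total gene counts and not by trimmed means of M-values (TMM), the median log2 difference of all genes moved from 0.01 to 0.16. The split of genes against the mean then became 5222 higher and 2537 lower. All 656 higher genes and 316 of the 403 lower genes of the stricter set stayed in it under that scaling.

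**Figure D1:**
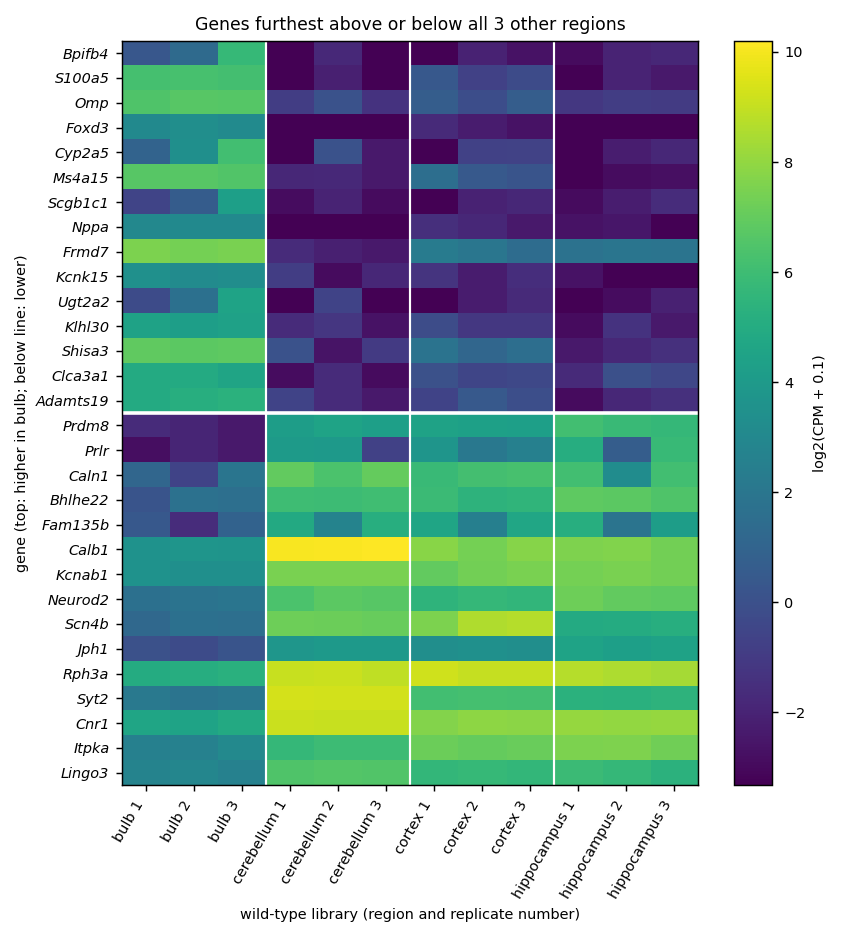
Level of the 15 genes furthest above and the 15 furthest below all 3 other regions, as log2(CPM + 0.1) by colour, in each of the 12 wild-type libraries. The upper block is bright in the 3 bulb columns, but Bpifb4, Cyp2a5, Scgb1c1 and Ugt2a2 are much brighter in bulb library 3 than in bulb libraries 1 and 2; the lower block is dark in the bulb columns.

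The 15 genes furthest above every other region were, in order of their difference from the nearest region, Bpifb4, S100a5, Omp, Foxd3, Cyp2a5, Ms4a15, Scgb1c1, Nppa, Frmd7, Kcnk15, Ugt2a2, Klhl30, Shisa3, Clca3a1 and Adamts19. The places of Bpifb4, Cyp2a5, Scgb1c1 and Ugt2a2 rest on bulb library 3, and in bulb libraries 1 and 2 Bpifb4, Scgb1c1 and Ugt2a2 were under the 5 CPM used for naming. S100a5, a calcium-binding protein of olfactory sensory neurons, had 74.1, 78.2 and 72.5 CPM in the 3 bulb libraries and at most 1.23 CPM in any other library. From the cortex, the nearest region, it differed by 6.55 log2 units (adjusted p = 3.61e-07). For the FERM domain protein Frmd7 the bulb libraries held 183, 166 and 178 CPM and the other libraries 0.0903 to 4.82 CPM. Each of these genes had bulb values that did not overlap with the other libraries. Ms4a15, a membrane protein, was at 103, 103 and 93.5 CPM in the bulb and at most 2.87 CPM elsewhere. The metalloprotease gene Adamts19 had 30.7, 35.4 and 40 CPM in the bulb and 0.0297 to 1.29 CPM elsewhere. Nppa, the precursor of atrial natriuretic peptide, was found at 7.9, 8.58 and 8.4 CPM in the bulb and with no count in the cerebellum, so it was at least 255-fold higher than the limit that a count of 0 allows there. Against the cortex its difference was 5.62 log2 units (adjusted p = 1.96e-06). Nppa lies opposite another counted gene, and the strand setting of the counting is not given in the sources used here, so reads of such partners may be mixed. The bulb means were 9.96 CPM for the potassium channel Kcnk15, 20.7 CPM for Klhl30, 28.6 CPM for Clca3a1 and 115 CPM for Shisa3. Clca3a1 has close paralogs that may share its reads.

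Mitral and tufted cell genes were among those furthest above the other regions. Of 12 markers tested, 9 were higher than the mean of the other regions, 1 was lower and 2 did not pass, and 7 were higher than each region. Their median log2 difference was 2.97, against 0.01 over all genes. Tbx21, a T-box transcription factor of mitral and tufted cells, had 40.7, 39.9 and 42.3 CPM in the bulb libraries. In the other libraries it ranged from 0.0366 to 1.39 CPM. The log2 difference from the mean was 7.27 ± 0.16 (SE, adjusted p = 4.77e-11), and the bulb libraries lay close together, far from all others. Eomes, the related factor that acts in excitatory neuron precursors, was at 164, 164 and 136 CPM in the bulb, 22.2 to 31.3 CPM in the cerebellum, 2.23 to 5.39 CPM in the cortex and 0.544 to 1.22 CPM in the hippocampus. Cdhr1, a cadherin of photoreceptors and mitral cells, had 743, 636 and 649 CPM in the bulb, and its highest value elsewhere was 38.9 CPM. Doc2g, a member of the Doc2 family, differed from the mean by 5.47 ± 0.11 log2 units (adjusted p = 1.54e-11), with 118, 112 and 124 CPM in the bulb and 1.37 to 4.18 CPM elsewhere. Lbhd2 and Shisa3 were also above each region, at 16.5 ± 1.39 CPM and 115 ± 6.03 CPM in the bulb (SD, n = 3). Netrin G1 (Ntng1) had a smaller difference of 1.5 ± 0.09 log2 units. The values of Cdhr1 and Lbhd2 depend on cerebellum library 1: without it their differences from the mean were 6.99 and 5.11 log2 units in place of 6.38 and 4.45.

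Other mitral cell genes were shared with 1 or more regions. Reelin (Reln), a secreted positioning signal, had 425, 265 and 353 CPM in the bulb and 369 to 397 CPM in the cerebellum, so the groups overlapped, although it was higher than the mean (1.18 ± 0.14 log2 units, adjusted p = 2.61e-05). Tbr1, a factor of both mitral cells and deep cortical neurons, had 17.6 ± 1.01 CPM in the bulb (SD, n = 3), 0.833 CPM in the cerebellum, 135 CPM in the cortex and 56.5 CPM in the hippocampus. Against the mean it did not pass (-0.07, adjusted p = 0.596), and scaling by library totals turned the sign (0.07, adjusted p = 0.635). The bulb is thus placed between the cerebellum and the other forebrain regions for Tbr1. In bulk tissue, more cells of a type and more RNA per cell cannot be told apart.

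**Figure D2:**
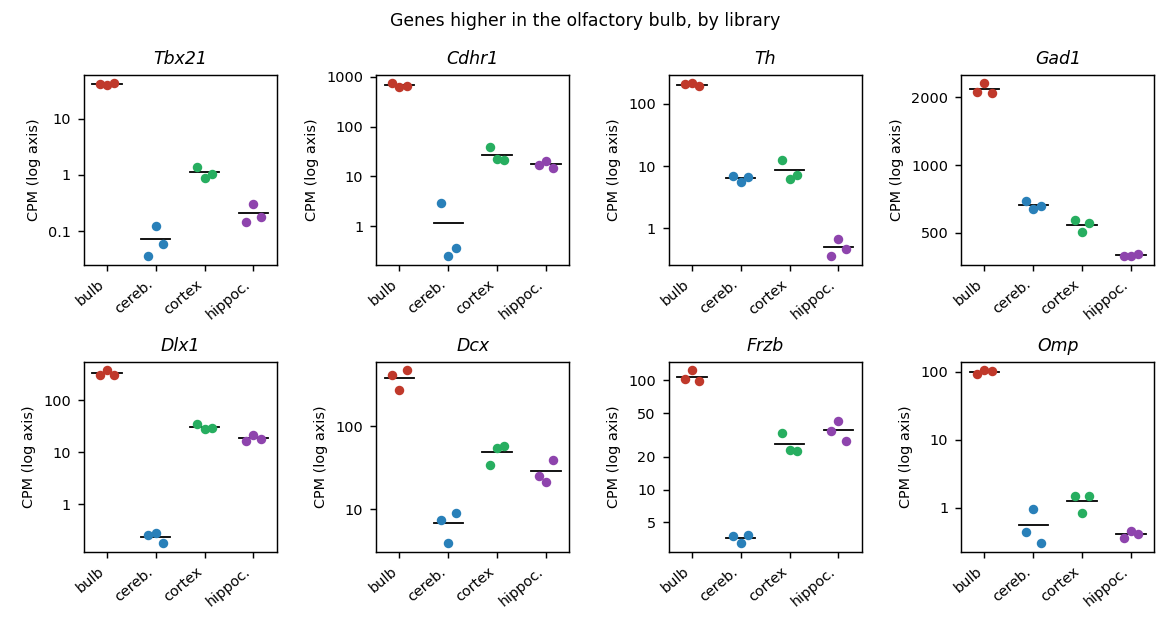
CPM of 8 genes in every library, on log axes, by region, with the mean of 3 libraries as a line. The bulb points lie above those of the other regions in each panel, and the regions next to the bulb differ between genes.

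Genes of dopamine synthesis differed from each other. Of 13 tested, 5 were higher and 4 lower than the mean, beside 22% and 21.6% of all genes tested. Their median was -0.12. Tyrosine hydroxylase (Th), the rate-limiting enzyme, was at 206, 216 and 191 CPM in the bulb libraries. The other regions had 5.6 to 6.85 CPM (cerebellum), 6.22 to 12.6 CPM (cortex) and 0.357 to 0.675 CPM (hippocampus). The log2 difference of Th from the mean was 6.10 ± 0.17 (adjusted p = 4.9e-10), and no bulb library was near another region. The dopamine transporter Slc6a3 had 11.8, 14.1 and 10 CPM in the bulb and at most 0.923 CPM elsewhere, a difference of 5.70 ± 0.25. The vesicular monoamine transporter Slc18a2 had 11.4, 7.64 and 9.92 CPM in the bulb, against 0.0602 to 3.49 CPM elsewhere. Its value depends on cerebellum library 2, being 2.97 log2 units with it and 3.65 without. Gch1, which makes the first precursor of the cofactor of Th, was higher by 0.95 ± 0.21. Against the hippocampus Gch1 did not pass (0.69, adjusted p = 0.0568). The decarboxylase Ddc was higher by 0.61 (adjusted p = 0.00806), a call that was lost without bulb library 2 (0.46, adjusted p = 0.063).

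The other genes of this list were not high in the bulb. Nr4a2, a nuclear receptor needed by midbrain dopamine neurons, was lower than the mean by -0.80 ± 0.18 log2 units. It was not lower than the cerebellum (0.52, adjusted p = 0.0653). Aldh1a1, found in some midbrain dopamine neurons, was also lower (-1.0 ± 0.12), as was the cofactor-recycling enzyme Qdpr (-0.71 ± 0.10). For Aldh1a1 the bulb (39.5 to 56.8 CPM) overlapped with the cortex (49.5 to 57 CPM, -0.21, adjusted p = 0.238). The cerebellum was far above both, at 209 to 228 CPM. The receptor Drd2 had 2.76, 2.51 and 2.12 CPM in the bulb against 24.3 to 44.7 CPM in the cortex, and did not pass against the mean (-1.33, adjusted p = 0.111). It passed without cerebellum library 1 (-0.71, adjusted p = 0.0232) or 2 (-1.5, adjusted p = 0.0316). The cortex libraries also had the highest sum of striatum markers, a list that includes Drd2 (921 to 1609 CPM, at most 345 CPM elsewhere). Of 6 midbrain dopamine factors, 3 could be tested, of which 1 was lower than the mean and 2 did not pass. Their summed level was 0.347 to 0.503 CPM in the bulb and 0.359 to 9.48 CPM elsewhere. Lmx1a, one of them, had 0 to 0.0866 CPM in the bulb and 0.782 to 2.12 CPM in the cerebellum. Its call was lost in the run on the libraries low in Ttr (adjusted p = 0.0526).

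The promoters of 4 genes are shown because they carry the main contrasts: Th for dopamine, Dcx and Dlx6os1 for the interneuron lineage, and Neurod2 for the genes lower in the bulb. They are the 250 bases before the annotated start in RefSeq on GRCm38.p6, written 5′ to 3′ on the strand of the gene, which is the minus strand for all of them. Capitals mark TGACGTCA (the cyclic AMP response element), TAATTA (a core bound by many homeodomain factors) or the E-boxes CAGATG and CATATG (a motif class bound by basic helix-loop-helix factors). The 3 other motifs read the same on both strands, whereas CAGATG was searched on both strands. The windows are chr7:142899996-142900245 for Th, chrX:143933220-143933469 for 1 of the annotated starts of Dcx, chr6:6869534-6869783 for 1 of the starts of Dlx6os1 and chr11:98329646-98329895 for Neurod2.
Th: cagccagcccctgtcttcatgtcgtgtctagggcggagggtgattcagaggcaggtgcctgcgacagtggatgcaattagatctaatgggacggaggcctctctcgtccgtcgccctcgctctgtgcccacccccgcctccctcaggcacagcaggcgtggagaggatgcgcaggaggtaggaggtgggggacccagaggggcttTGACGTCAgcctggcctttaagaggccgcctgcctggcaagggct
Dcx: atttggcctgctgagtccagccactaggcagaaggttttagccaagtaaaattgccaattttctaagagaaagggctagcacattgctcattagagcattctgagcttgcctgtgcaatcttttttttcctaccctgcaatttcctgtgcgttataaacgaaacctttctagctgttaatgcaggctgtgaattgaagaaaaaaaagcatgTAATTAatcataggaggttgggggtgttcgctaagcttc
Dlx6os1: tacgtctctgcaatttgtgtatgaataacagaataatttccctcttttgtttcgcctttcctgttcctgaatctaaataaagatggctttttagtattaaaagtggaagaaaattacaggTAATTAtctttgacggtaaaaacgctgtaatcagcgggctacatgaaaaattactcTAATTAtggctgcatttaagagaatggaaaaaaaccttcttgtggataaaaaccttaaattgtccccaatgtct
Neurod2: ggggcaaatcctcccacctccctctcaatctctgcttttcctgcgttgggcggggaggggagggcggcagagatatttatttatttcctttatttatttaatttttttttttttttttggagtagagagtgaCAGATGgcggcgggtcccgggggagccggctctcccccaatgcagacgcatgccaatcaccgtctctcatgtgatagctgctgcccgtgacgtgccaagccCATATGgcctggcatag

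The element TGACGTCA lay 45 to 38 bases before the start of Th and was present in 1.55% of all 32851 promoter windows of this length. It was found in 1.62% of the windows of genes higher in the bulb than in each region and in 1.57% of those lower, against 2.36% of the windows of all genes tested. TAATTA was found 39 to 34 bases before the start of Dcx and at 130 to 125 and 74 to 69 bases before that of Dlx6os1. It was in 4.84% of all windows, 2.87% of those of genes tested, 5.41% of those of the higher genes and 3.39% of those of the lower genes. Neurod2 held CAGATG at 118 to 113 bases, a motif in 14.4% of all windows, 10.6% of those of genes tested, 12.6% of the higher set and 15.7% of the lower set. It also held CATATG at 17 to 12 bases, in 3.46% of all windows, 1.79% of those of genes tested, 1.98% of the higher set and 3.92% of the lower set. These matches describe the letters of the windows and do not show binding.

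Inhibitory neuron genes were high. Of 6 genes for GABA synthesis and transport, 5 were higher than the mean and 1 did not pass, and in these 5 every bulb library lay above all others. The glutamate decarboxylase Gad1, which makes GABA, had 2105, 2315 and 2089 CPM in the bulb and 394 to 692 CPM elsewhere. It differed from the mean by 2.06 ± 0.06 log2 units (adjusted p = 4.94e-10). The second decarboxylase Gad2 was higher by 1.1 ± 0.10 and the vesicular transporter Slc32a1 by 1.09 ± 0.08. Slc6a11, a GABA transporter of astrocytes, had 972, 1039 and 868 CPM in the bulb and 64.3 to 348 CPM elsewhere, so its bulb values were apart from all others. Abat, which breaks GABA down, was higher by only 0.48 ± 0.08.

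Transcription factors of the interneuron lineage gave the largest group. Of 24 tested, 18 were higher than the mean, 4 were lower, and 12 were higher than each region, with a median of 2.40. The homeobox genes of the Dlx family, which act in inhibitory precursors of the ventral forebrain, were at or near 0 in the cerebellum. Dlx1 had 306, 368 and 308 CPM in the bulb, 28.2 to 35 CPM in the cortex, 16.8 to 21.5 CPM in the hippocampus and 0.18 to 0.285 CPM in the cerebellum. Its bulb mean differed from the cortex by 3.41 ± 0.13 log2 units (adjusted p = 7.86e-09). Dlx2 had 62.9, 75.1 and 58.9 CPM in the bulb and 5.93 to 7.95 CPM in the cortex, and was at least 2016-fold above the limit for a count of 0 in the cerebellum. Dlx5 and Dlx6 were higher than in the cortex by 2.5 ± 0.19 and 1.75 ± 0.23. The noncoding RNA Dlx6os1, transcribed opposite Dlx6, varied more in the bulb, at 184, 91.2 and 171 CPM, with library 2 the lowest but still above the cortex (21.3 to 29 CPM). Dlx1 has a counted antisense partner with overlapping exons, so its reads are uncertain where strand is concerned. For Dlx6 and Dlx6os1 the GRCm38 annotation gave no exon overlap with another counted gene.

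Sp8 and Sp9, zinc finger factors of bulb interneuron precursors, followed the same order of regions. Sp8 had 113, 135 and 111 CPM in the bulb, 4.6 to 6.72 CPM in the cortex and at most 0.0949 CPM in the cerebellum, and Sp9 had 41.4, 49.5 and 46.6 CPM in the bulb. Sp9 had no count in the cerebellum and was at least 1409-fold higher than the limit there, and it differed from the cortex by 2.90 ± 0.15 log2 units. Sp9 has exons opposite another counted gene, so its reads are uncertain as to strand. Tshz1, which acts in the radial migration of bulb neuroblasts, was higher by 3.44 ± 0.08 (adjusted p = 4.77e-11), with 452, 409 and 377 CPM in the bulb and 23.3 to 52 CPM elsewhere. Sall3, needed for dopaminergic periglomerular cells, differed from the mean by 4.47 ± 0.11. Meis2 had 699.7 ± 42.3 CPM in the bulb (SD, n = 3) and 166 CPM in the cortex. Vax1 was 1.23 ± 0.31 log2 units above the cortex, where it was nearest to the bulb. These factors had bulb libraries that did not overlap with any other.

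Some factors of the same list were shared with another region. Pax6, which acts in dopaminergic periglomerular cells and in cerebellar granule cells, had 73.5, 80 and 77.7 CPM in the bulb and 109 to 139 CPM in the cerebellum, against 9.08 to 11.1 CPM in the cortex. Zic1 had 139.8 ± 3.94 CPM in the bulb (SD, n = 3) and 1030 CPM in the cerebellum. Its difference from the mean, 0.72 ± 0.13, became -0.43 when the hippocampus was left out of the mean. Foxp2 overlapped between bulb and cortex (21.4, 17 and 23.2 CPM against 16.3 to 36.4 CPM).

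Markers of mature granule and periglomerular cells were split. Of 19 tested, 15 were higher and 4 lower than the mean, with a median of 1.76, and 7 were higher and 2 lower than each region. The G protein subunit Gng4 had 809, 937 and 788 CPM in the bulb and 4.05 to 114 CPM elsewhere. Synaptoporin (Synpr), a vesicle protein, was higher by 2.53 ± 0.07 (adjusted p = 2.08e-10). Thyrotropin-releasing hormone (Trh) was at 79.1, 87 and 78.2 CPM in the bulb, 7.15 to 21 CPM in the cortex and under 1 CPM in the other 2 regions. The peptide neuromedin B (Nmb) differed from each region by at least 3.80 log2 units, with 42.2, 35.2 and 45 CPM in the bulb. Wnt5a, Cpne4 and the prokineticin receptor Prokr2 were also above each region, by 1.62, 1.34 and 2.47 log2 units from the nearest one.

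The calcium-binding proteins of interneurons moved in opposite directions. Calretinin (Calb2) had 482, 570.1 and 443 CPM in the bulb and 403 to 449.6 CPM in the cerebellum, which overlapped, but at most 77.5 CPM in the cortex and 45.6 CPM in the hippocampus. Calbindin (Calb1), in contrast, was at 11.8, 13.1 and 12.6 CPM in the bulb and at least 162 CPM in all other libraries. Its difference from the mean was -4.79 ± 0.13 log2 units (adjusted p = 1.47e-10), and from the nearest region, the hippocampus, -3.87. Parvalbumin (Pvalb), of fast-spiking interneurons and Purkinje cells, was lower than each region, with 3.82, 4.33 and 5.2 CPM in the bulb against 25.1 to 542 CPM. Somatostatin (Sst) had 4.75 to 6.63 CPM in the bulb, 142 to 171 CPM in the cortex, 143 to 154 CPM in the hippocampus and an overlapping 1.77 to 16.1 CPM in the cerebellum. Sst differed from the mean by -3.19 ± 0.62 (adjusted p = 0.00227).

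Neuroblast genes were higher as well. Of 16 tested, 12 were higher and 1 lower than the mean, with a median of 1.31. Doublecortin (Dcx), a microtubule protein of migrating neurons, had 413, 271 and 465 CPM in the bulb, and the highest other library had 57.1 CPM. It was above the mean by 4.18 ± 0.24 (adjusted p = 1.7e-07), and bulb library 2 was the lowest of the 3 but still above every other library. Sox4, a factor of immature neurons, was higher by 3.03 ± 0.08, with 109, 120.5 and 112 CPM in the bulb and 6.33 to 23.8 CPM elsewhere. The surface protein Cd24a was higher by 2.01 ± 0.10 and Igfbpl1 by 4.01 ± 0.30. The collapsin response mediators Dpysl3 and Dpysl5 were higher by 1.59 and 1.38, and St8sia2, which adds polysialic acid to NCAM, by 1.25. Against the cortex St8sia2 did not pass (0.48, adjusted p = 0.0635). Sox11 was higher than the mean (1.61 ± 0.40) but bulb library 2 (1.48 CPM) lay below the cortex values (1.65 to 2.99 CPM), and with the cerebellum left out it did not pass (0.85, adjusted p = 0.128). The single gene lower than the mean was Robo3, a guidance receptor, at 2.55 to 3.33 CPM in the bulb. It had 9.95 to 59.4 CPM in the cortex and 33.9 to 40.5 CPM in the hippocampus. Robo3 was not lower than the cerebellum (1.4, adjusted p = 0.0656), where every library lay below the bulb libraries.

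The proliferation list did not follow the neuroblast list. Of 10 proliferation genes tested, 1 was higher and 1 lower than the mean, beside 22% and 21.6% of all genes tested, and the median was -0.08. The higher one, the mitotic kinase Cdk1, had 1.23, 0.972 and 0.78 CPM in the bulb and 0.413 to 0.667 CPM elsewhere, a difference of 0.84 ± 0.22 (adjusted p = 0.00746). This call was lost without bulb library 1 (0.67, adjusted p = 0.0619). The summed level of the list was 57.1 to 68.1 CPM in the bulb and 55.1 to 67.5 CPM elsewhere, so the groups overlapped.

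Guidance genes lay on both sides, as did all genes tested (22% higher and 21.6% lower than the mean). Of 23 tested, 8 were higher and 7 lower than the mean, with a median of -0.12. In a fit with the replicate number as a block (a term shared by libraries of equal number), the counts were 9 and 10. Prokineticin 2 (Prok2), a chemoattractant of bulb neuroblasts, had 3.52, 5.03 and 3.51 CPM in the bulb, 0.323 to 1.03 CPM in the cortex and no count in the cerebellum, so it was at least 123.5-fold above the limit there. Its receptor Prokr2 had 30.8, 25.5 and 29.2 CPM in the bulb and 0.271 to 5.71 CPM elsewhere. The semaphorin Sema3c was higher than each region, by 1.42 log2 units from the nearest. Among the genes that were lower, the repellents Slit2 and Slit3 differed from the mean by -2.05 ± 0.27 and -1.57 ± 0.23. The semaphorin receptors Nrp2 and Plxna1 differed by -1.02 ± 0.14 and -1.45 ± 0.13, and the ephrin receptor Epha4 by -1.07 ± 0.14. Of these 5, only Plxna1 was lower than each region. The differences of the others from the cerebellum were -0.28 for Slit2, -0.33 for Slit3, 0.45 for Nrp2 and 1.09 for Epha4.

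Genes of ensheathing glia were high in the bulb. Of 12 tested, 10 were higher and 1 lower than the mean, with a median of 2.01, and 6 were higher than each region. Frzb, a secreted Wnt antagonist, had 103, 123 and 98.3 CPM in the bulb and 3.23 to 42.5 CPM elsewhere, so the groups were apart. Fabp7, a fatty acid-binding protein of radial and ensheathing glia, was higher by 3.34 ± 0.14 (adjusted p = 6.25e-09). The neural crest factor Foxd3 had 8.45, 10.1 and 8.92 CPM in the bulb, no count in the cerebellum or hippocampus, and at most 0.205 CPM in the cortex. It was at least 281-fold and 251-fold above the limits for a count of 0 in those 2 regions, and 6.28 ± 0.36 log2 units above the cortex. Apolipoprotein D (Apod) and matrilin 4 (Matn4) were higher by 1.82 ± 0.12 and 2.21 ± 0.12. The protease Prss56 had 4.84, 4.39 and 4.16 CPM in the bulb and at most 0.395 CPM elsewhere. The water channel Aqp1, which is also a choroid plexus gene, had 54.3, 70.1 and 57.1 CPM in the bulb and 0.331 to 15.9 CPM elsewhere. Neuropeptide Y (Npy) overlapped between bulb (55.6, 71.2 and 65.8 CPM) and cortex (50.7 to 66.8 CPM), and Mybpc1 was higher in the cerebellum (38.5 to 83.3 CPM) than in the bulb (18.6 to 21.6 CPM). Gap43, a growth cone protein, was the lower member (-1.1 ± 0.08).

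Transcripts of olfactory sensory neurons, whose cell bodies lie in the nose, were also counted in the bulb. Of 17 such genes tested, 5 were higher than the mean, 4 were lower and 8 did not pass. Over all genes tested, 22% were higher and 21.6% lower, so the list as a whole was near that share. All 5 higher genes were higher than each region, beside 3.92% of all genes tested. Olfactory marker protein (Omp), found in mature sensory neurons, had 90.6, 104 and 100.3 CPM in the bulb and 0.301 to 1.49 CPM elsewhere. The 3 bulb values were alike and far from the others (7.21 ± 0.20 log2 units from the mean, adjusted p = 3.49e-10). Stoml3, a membrane protein of cilia, was at 12.7, 16.7 and 16.2 CPM in the bulb and at most 1.08 CPM elsewhere. The transduction channel subunit Cnga2 was at 1.19, 1.91 and 2.42 CPM against 0.103 to 0.539 CPM, and the receptor transporter Rtp2 at 0.679, 1.51 and 1.39 CPM against at most 0.272 CPM. Gnal, the G protein of odorant signalling that is also found in the striatum, was in contrast lower than each region, at 59.6, 51.2 and 56.1 CPM in the bulb against 130.3 to 384 CPM. It was the only 1 of the 4 lower genes that was lower than each region.

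Odorant receptor genes were at low counts. Of 985 counted receptor features, 6 passed the filter on low counts. The 3 bulb libraries had a count in 121, 150 and 214 of them, and the other libraries in 23 to 42. Summed over the family, the bulb had 15.4 to 20.9 CPM and the other libraries 6.99 to 9.67 CPM. Without Olfr287, which was alike everywhere (3.77 to 4.67 CPM in the bulb and 2.95 to 4.57 CPM elsewhere), the sums were 10.7 to 17.1 and 3.08 to 6.14 CPM. In all, 273 receptor genes had a count in a bulb library and in no other library, 25 of these in all 3 bulb libraries, while 58 had a count only outside the bulb. The 3 bulb libraries were compared here with 9 others, so the number outside rests on more libraries. Olfr32 was the clearest single receptor among those tested and was singled out after its values were seen: 1.27, 1.04 and 1.26 CPM in the bulb, no count in the cerebellum and hippocampus, and 0.0359 CPM at most in the cortex.

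The number of receptors counted was largest in bulb library 3, and 1 group of genes moved with that library. Bpifb4, a secreted protein of the airway lining, had 1.19, 2.48 and 54 CPM in bulb libraries 1, 2 and 3. The nasal cytochrome Cyp2a5 had 1.91, 10.5 and 69 CPM, the secretoglobin Scgb1c1 0.594, 1.44 and 19.8 CPM and the olfactory glucuronosyltransferase Ugt2a2 0.764, 3.08 and 22.5 CPM. All 4 were called against each region, but without bulb library 3 their differences from the mean fell to 4.43, 4.75, 3.30 and 4.15 log2 units, from 7.81, 6.87, 6.11 and 6.31. Without cerebellum library 2, Bpifb4, Cyp2a5 and Ugt2a2 were at 9.11, 7.77 and 8.12. A list of 10 genes of the nasal lining and its glands, chosen after these values were seen, summed to 7.22, 27.4 and 257 CPM in the bulb libraries and 0.327 to 4.08 CPM elsewhere. Omp did not move with it. Of 454 genes that were higher than each region with at least 3 CPM in the bulb, 7 had a range of over 10-fold within the bulb, and all 7 were highest in library 3. In the run on the libraries low in Ttr, described with the choroid plexus genes, none of the 4 passed (adjusted p = 0.0979 for Bpifb4, 0.0742 for Cyp2a5, 0.111 for Scgb1c1 and 0.0791 for Ugt2a2). What sets library 3 apart was not tested. Cyp2a5 and Ugt2a2 have near-identical relatives that may share their reads.

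**Figure D3:**
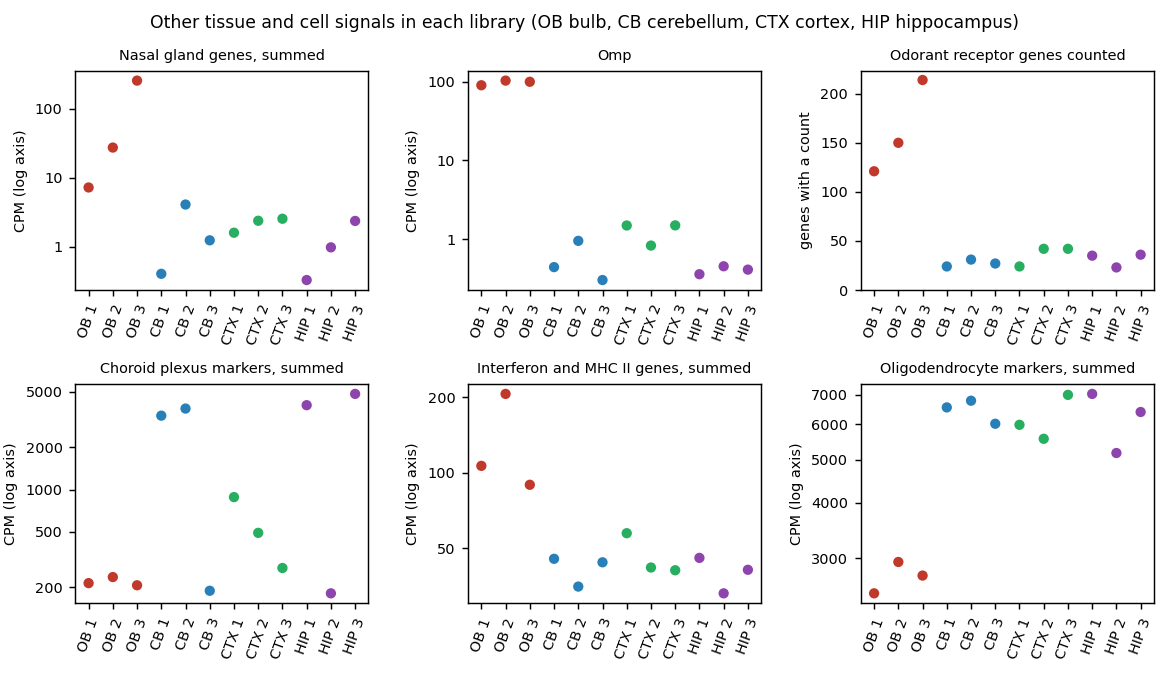
Level of 6 signals in each of the 12 libraries, as CPM on log axes, or as the number of odorant receptor genes with a count on a linear axis from 0. Nasal gland genes are highest in bulb library 3, interferon and MHC class II genes in bulb library 2, Omp is alike in the 3 bulb libraries, and choroid plexus markers are low in the bulb and in cerebellum 3, cortex 3 and hippocampus 2.

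A second group moved with bulb library 2. A list of 10 interferon-induced and MHC class II genes, also chosen after their values were seen, summed to 107, 207 and 89.5 CPM in bulb libraries 1, 2 and 3 and 33.0 to 57.3 CPM elsewhere. All 10 were higher than each region. Without bulb library 2, 4 of them were, and all 10 were still higher than the mean. In the edgeR run on the libraries low in Ttr, described with the choroid plexus genes, 0 were higher than each region (3 at an unadjusted p under 0.05) and 9 were higher than the mean. Cd74, the invariant chain of MHC class II, had 16.2, 38.7 and 16.4 CPM in the bulb and 1.28 to 9.64 CPM elsewhere, and the antiviral gene Oasl2 had 10.2, 22.6 and 7.32 CPM. Immunoglobulin kappa constant (Igkc) was at 8.02, 21.7 and 4.81 CPM in the bulb and at most 0.892 CPM elsewhere, and the joining chain Jchain at 4.33, 10.8 and 2.6 CPM. Library 2 was the highest for these 4 genes, and without it their differences from the mean stayed above 0, at 1.05 for Oasl2, 3.93 for Igkc and 2.20 for Jchain, in place of 1.67, 4.77 and 2.98. What sets library 2 apart was not tested.

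Among signalling genes, peptide precursors were often high. Of 22 neuropeptide genes, 12 were higher and 6 lower than the mean, with a median of 1.18, though only Trh and Nmb were higher than each region. Corticotropin-releasing hormone (Crh) had 15.9, 11.1 and 13.2 CPM in the bulb and 4.85 to 10.9 CPM in the cortex, which were next to each other. Against the cortex Crh did not pass (0.86, adjusted p = 0.0731). Proenkephalin (Penk) was within the cortex values at 239.7, 267 and 238 CPM, and secretogranin II (Scg2), a granule protein, was above all other libraries with 754, 713 and 629.5 CPM. Insulin-like growth factor 1 (Igf1), which guides sensory axons in the bulb, was the one of 12 IGF genes above each region, with 58, 35.6 and 47.4 CPM in the bulb and 6.29 to 15.3 CPM elsewhere (2.20 ± 0.15 log2 units from the mean). In that list 6 genes were higher and 1 lower, beside 22% and 21.6% of all genes tested.

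Receptor and channel families had members on both sides, as did all genes tested (22% higher and 21.6% lower than the mean). Of 22 GABA-A and glycine receptor genes, 3 were higher and 7 lower than the mean, with a median of -0.23. These counts became 6 and 9 with the replicate number as a block, and 7 and 5 with scaling by library totals, so the balance of directions depended on the scaling. Gabra5 was higher than the mean (2.31 ± 0.29) at 143, 173 and 147 CPM, below the hippocampus (182 to 232 CPM) and, with the cerebellum left out of the mean, no longer past the test (0.39, adjusted p = 0.354). Of 25 glutamate receptor genes, 7 were higher and 6 lower. Grm2, a presynaptic metabotropic receptor, had 122, 148 and 114 CPM in the bulb and 21.4 to 74.2 CPM elsewhere, Grm8 was higher by 1.48 ± 0.08 and Grin2d by 1.13 ± 0.14. The kainate receptor subunit Grik4 was lower than each region (-2.53 ± 0.11). Among 22 voltage-gated potassium channel genes, 6 were higher and 7 lower, and Kcnc4, Kcna6 and Kcna1 were lower than each region, by at least 1.84, 1.42 and 1.35 log2 units. Kcna4 and Kcnh3 were above all other libraries, by 0.70 and 0.36 log2 units from the nearest region. Against the cortex Kcnh3 did not pass (adjusted p = 0.0905).

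Of 15 retinoid pathway genes, 5 were higher and 5 lower, beside 22% and 21.6% of all genes tested. The retinoic acid-making enzyme Aldh1a3 was at 6.96, 5.1 and 5.33 CPM in the bulb and 0.675 to 2.72 CPM elsewhere. The binding proteins Crabp1 and Crabp2 were 1.61 and 1.61 log2 units above the nearest region, the cortex. On the other side, Cyp26b1, which breaks retinoic acid down, was lower than each region, with 2.72, 5.06 and 2.81 CPM in the bulb and 10.9 to 31.8 CPM elsewhere. The retinol carrier Rbp4 was lower too (-2.81 ± 0.23). The synthesis enzymes went both ways against the mean, since Aldh1a1 was lower, though it overlapped with the cortex.

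Activity-induced genes were partly higher. Of 18 immediate early genes, 8 were higher and 1 lower than the mean, beside 22% and 21.6% of all genes tested. The median was 0.61, and the block gave 9 and 3. Without bulb library 2 the counts were 5 and 1, and without bulb library 3 they were 5 and 3. Npas4 had 33.1, 55.2 and 40.8 CPM in the bulb and 4.3 to 36.1 CPM elsewhere, overlapping with the cortex. Egr2 had 7.73, 14.2 and 20.4 CPM in the bulb and 5.71 to 10.7 CPM in the cortex, which also overlapped. Atf3 was the 1 gene of the list above each region (1.78 ± 0.24, with 3.01, 2.51 and 5.02 CPM in the bulb), beside 3.92% of all genes tested.

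**Figure D4:**
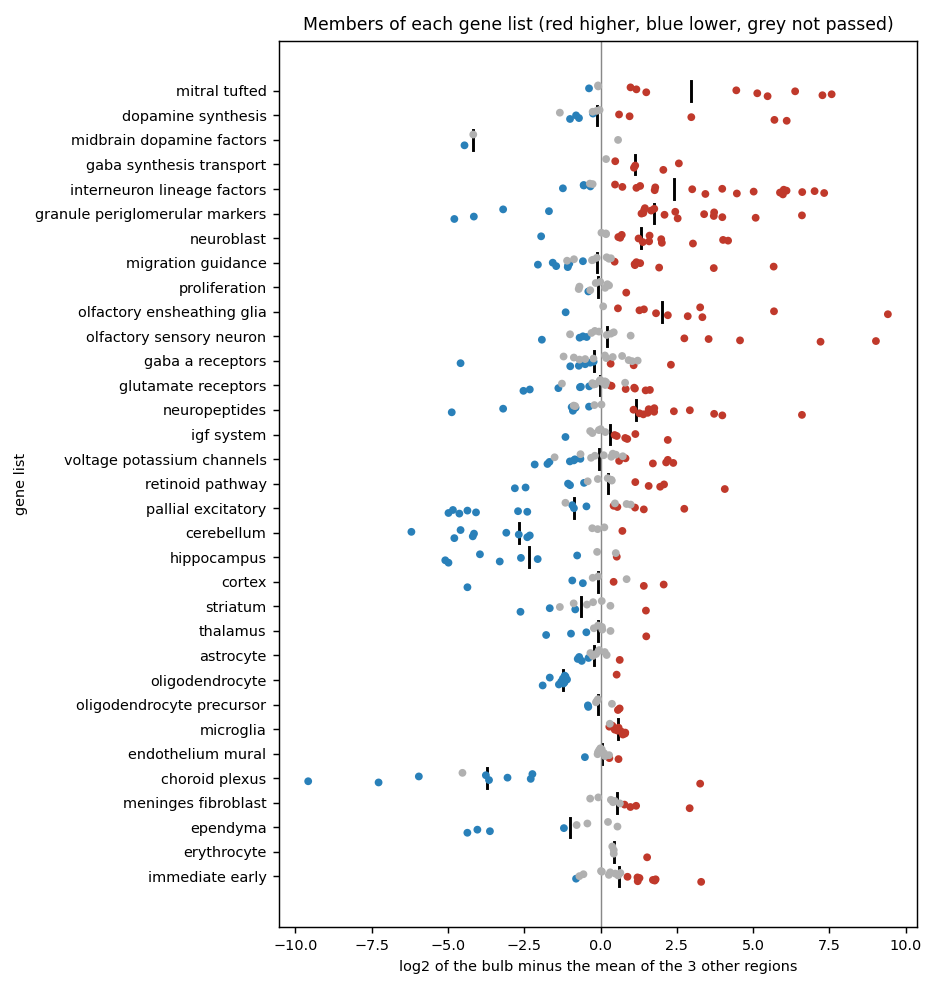
Log2 difference of the bulb from the mean of the 3 other regions for each tested member of each gene list, with the list's median as a black bar. Red points were higher and blue points lower at an adjusted p under 0.05, and grey points did not pass. The medians are furthest to the right for mitral and tufted cells, interneuron lineage factors and ensheathing glia, and those of oligodendrocytes, hippocampus, cerebellum, choroid plexus and midbrain dopamine factors (3 genes) lie to the left of -1.

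The 15 genes furthest below every other region were Prdm8, Prlr, Caln1, Bhlhe22, Fam135b, Calb1, Kcnab1, Neurod2, Scn4b, Jph1, Rph3a, Syt2, Cnr1, Itpka and Lingo3. Prdm8, a transcriptional repressor of developing projection neurons, had 0.212, 0.168 and 0.0866 CPM in the bulb. The cerebellum had 18.7 to 23 CPM, the cortex 20.1 to 22.4 CPM and the hippocampus 51.9 to 70.2 CPM. The difference from the nearest region was -6.99 ± 0.22 log2 units (adjusted p = 3.85e-10). Prdm8 lies opposite another counted gene, so its reads are uncertain as to strand. Bhlhe22, a basic helix-loop-helix factor that is known to act with Prdm8, had 1.06, 3.19 and 2.94 CPM in the bulb and 42.9 to 115 CPM elsewhere. Neurod2, whose promoter is printed above, had 3.14, 3.42 and 3.73 CPM in the bulb and at least 44.9 CPM in every other library (-4.62 ± 0.14 from the mean, adjusted p = 4.38e-10).

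Genes listed for excitatory forebrain neurons were lower in part. Of 19 pallial excitatory genes tested, 10 were lower and 5 higher than the mean, with a median of -0.87, and 5 were lower than each region. These 5 were Neurod2, Bhlhe22, Neurod6, Itpka and Nptx1. Of them, Neurod2, Bhlhe22 and Nptx1 were not confined to the forebrain. Their means were 98.3, 64.6 and 980 CPM in the cerebellum and 47.8, 49.1 and 454 CPM in the cortex. Neurod6 had 1.66, 1.21 and 1.21 CPM in the bulb, 4.81 to 6.61 CPM in the cerebellum and 199 to 235 CPM in the hippocampus. The inositol kinase Itpka and the pentraxin Nptx1 were lower than the nearest region by 3.13 and 2.06 log2 units. The vesicular glutamate transporter Slc17a7 was lower than the mean (-0.87 ± 0.11) but overlapped with the cerebellum (599.5, 587 and 532 CPM against 515 to 690.2 CPM).

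Other genes of these 15 have roles at the synapse or membrane. Rabphilin (Rph3a), a vesicle protein, had 31.4, 34.1 and 38.6 CPM in the bulb and 333 to 603 CPM elsewhere. The fast release sensor synaptotagmin 2 (Syt2) was at 4.29, 3.59 and 3.94 CPM in the bulb and 38.5 to 651 CPM elsewhere, and the cannabinoid receptor Cnr1 at 24.2, 22.5 and 29.7 CPM against 210 to 559.9 CPM. For all 3 genes the bulb was apart from every other library. The potassium channel subunit Kcnab1 differed from the nearest region by -3.81 ± 0.13 log2 units, the sodium channel subunit Scn4b by -3.56 ± 0.28, junctophilin 1 (Jph1) by -3.55 ± 0.14 and Lingo3 by -2.93 ± 0.13. Caln1 and Fam135b varied more, with 2.08, 0.57 and 3.77 and 1.23, 0.235 and 1.82 CPM in the bulb. Both were lowest in library 2 of the bulb, cerebellum and hippocampus, and Fam135b also in the cortex. Fam135b had 6.61, 5.57 and 3.53 CPM in library 2 of the cerebellum, cortex and hippocampus, and 18.6 to 36.2 CPM in their other libraries. Caln1 had 9.5 CPM in hippocampus library 2, against 67.9 and 69.3 CPM in hippocampus libraries 1 and 3. Without bulb library 3 the differences of Caln1 and Fam135b from the mean were -5.82 and -4.87 in place of -5.12 and -4.27. Fam135b did not pass with limma-voom (-4.35, adjusted p = 0.0752).

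**Figure D5:**
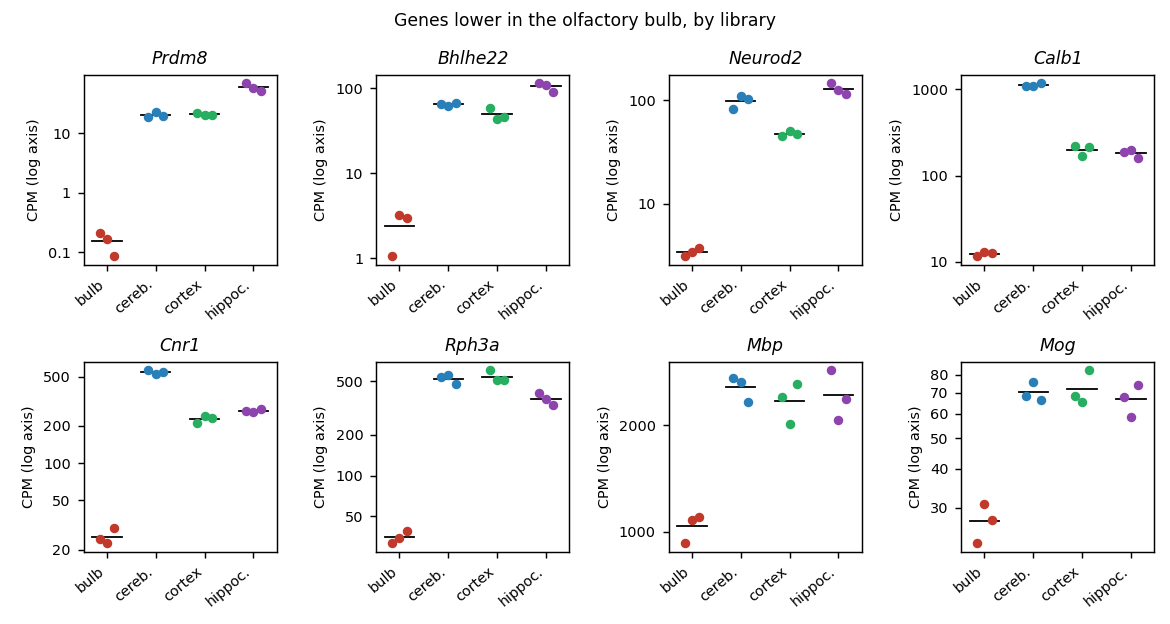
CPM of 8 genes lower in the bulb, in every library, on log axes, by region, with the mean of 3 libraries as a line. In every panel the 3 bulb points lie below all other points.

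Among glia, the oligodendrocyte genes were lower together. Of 12 tested, 11 were lower than the mean and 1 was higher, with a median of -1.22, and for each of the 11 all bulb libraries lay below all others. Myelin basic protein (Mbp) had 929.7, 1084 and 1099 CPM in the bulb and 2018 to 2850 CPM elsewhere, a difference of -1.24 ± 0.12 (adjusted p = 6.64e-06). The myelin surface protein Mog was lower by 1.36 log2 units, and Opalin and Ermn, of mature myelin, differed by -1.90 and -1.66. Aspa, the enzyme that breaks down N-acetylaspartate, was the higher one (0.53 ± 0.15), at 24.1, 25.6 and 26.3 CPM in the bulb. Of 8 oligodendrocyte precursor genes, 2 were higher and 2 lower, near the shares of all genes tested (22% and 21.6%). The summed oligodendrocyte level was 2503 to 2944 CPM in the bulb and 5174 to 7025 CPM elsewhere.

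Other glial and vascular lists differed less in their counts of called genes, apart from microglia. Over all genes tested, 22% were higher and 21.6% lower than the mean. Of 12 astrocyte genes, 1 was higher and 4 lower, and the list summed to 3958 to 4384 CPM in the bulb and 5273 to 7101 CPM elsewhere, with no overlap. The higher one was Gfap (0.63 ± 0.13), and the glutamate transporter Slc1a2 was lower (-0.75 ± 0.15) while above the cerebellum level (1462, 1147 and 1247 CPM against 794 to 1127 CPM). Of 12 microglia genes, 11 were higher than the mean and 1 did not pass. C1qa had 46.1, 73.8 and 46 CPM in the bulb, 13.8 to 15.4 CPM in the cerebellum and 42.6 to 57.7 CPM in the cortex, and Trem2 9.25, 12.9 and 11.5, 3 to 3.48 and 9.54 to 11.6 CPM. The summed microglia level was 473 to 638 CPM in the bulb, 164 to 194 CPM in the cerebellum and 498 to 678 CPM in the cortex, so the low region was the cerebellum. With the cerebellum left out of the mean, C1qa was at 0.26 (adjusted p = 0.18) and Trem2 at 0.19 (adjusted p = 0.225). Without bulb library 2, the highest, 5 microglia genes were called. Of 12 endothelial and mural genes, 2 were higher and 1 lower. Of 10 meningeal fibroblast genes, 4 were higher, and 7 with scaling by library totals. Islr, the one above each region, had 108, 121 and 105 CPM in the bulb and 9.36 to 25.6 CPM elsewhere. The whole meningeal list summed to 382 to 467 CPM in the bulb and 166 to 404 CPM elsewhere.

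Choroid plexus genes were lower in the bulb, but they also split the other regions. Transthyretin (Ttr), the defining choroid plexus transcript, had 1.02, 0.805 and 1.04 CPM in the bulb, 3.52 to 6.83 CPM in cerebellum library 3, cortex library 3 and hippocampus library 2, and 124 to 3020 CPM in the other 6. Of 10 choroid plexus genes, 8 were lower and 1 (Aqp1) higher than the mean, with a median of -3.71. When bulb library 1, 2 or 3 was left out, the edgeR test called 0 of them lower (5, 5 and 6 at an unadjusted p under 0.05); limma-voom on all libraries also called 0 (1 unadjusted), and DESeq2 called 9. With the replicate block 6 were lower, and Ttr itself no longer passed (-9.56, adjusted p = 0.0545). The prolactin receptor Prlr was among the 15 lower genes. In the cerebellum and hippocampus Prlr and the transporter Slc4a5 were lowest in the library lowest in Ttr, whereas in the cortex Prlr was lowest in library 2 (4.21 CPM, against 5.88 CPM in library 3). Prlr had 0.0425 to 0.168 CPM in the bulb and 0.511 to 54.7 CPM elsewhere, a difference of -6.98 log2 units from the mean (-7.64 without bulb library 2), which did not pass with limma-voom (-6.11, adjusted p = 0.296). Slc4a5 had 0.0335 to 0.0433 CPM in the bulb and 0.149 to 25.7 CPM elsewhere. In only the 3 libraries low in Ttr and the 3 bulb libraries, an alternative chosen after seeing the data, 3 choroid plexus genes were lower, with a median of -0.65, and Prlr was at -3.98 (adjusted p = 0.00373). In that run, with 1 library for each other region, 479 genes were higher and 262 lower than each region. Of 8 ependymal genes, 4 were lower and 4 did not pass, and their sum was 18.4 to 20.8 CPM in the bulb and 20.04 to 38.7 CPM elsewhere.

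Marker lists of the other regions differed in how they lay in the bulb. Of 13 cerebellum markers, 9 were lower and 1 (Zic1) higher than the mean, and the list summed to 214 to 233 CPM in the bulb and 8533 to 9432 CPM in the cerebellum. Of 10 hippocampus markers, 7 were lower and 1 higher, and of 9 cortex markers 3 were lower and 3 higher. Over all genes tested, 21.6% were lower and 22% higher. The cortex list summed to 369 to 395 CPM in the bulb, 824 to 953 CPM in the cortex, 143 to 209 CPM in the cerebellum and an overlapping 390 to 436 CPM in the hippocampus. Striatum markers summed to 196 to 256 CPM in the bulb, 921 to 1609 CPM in the cortex libraries, 292 to 345 CPM in the cerebellum and 223 to 283.6 CPM in the hippocampus. Among the cortex libraries this sum was lowest in library 1, as were Drd2, Penk, Foxp2, Gnal and Scn4b. Whether striatal tissue adds to the cortex values of these genes was not tested. For thalamus markers the bulb (234 to 259 CPM) lay below the cerebellum (519 to 699 CPM), overlapped with the cortex (210.5 to 372 CPM) and was above the hippocampus (169 to 201 CPM). Of the bulb lists, mitral and tufted markers summed to 1555 to 1857 CPM in the bulb against 430 to 675 CPM elsewhere. The sums of granule and periglomerular markers overlapped between the bulb (3434 to 3639 CPM) and the cerebellum (3364 to 3964 CPM), and those of olfactory sensory neuron genes were 885 to 968 CPM in the bulb and 956 to 1733 CPM elsewhere. Red blood cell genes summed to 29.5 to 78.3 CPM in the bulb and 25.2 to 47.4 CPM elsewhere, with bulb library 2 the highest.

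Each region could also be set against the bulb on its own. Against the cerebellum 3968 genes (23.7%) were higher in the bulb and 3796 (22.7%) lower, 46.4% in all. Against the cortex 3612 (21.6%) were higher and 3793 (22.7%) lower, 44.3% in all, and against the hippocampus 3337 (19.9%) were higher and 3503 (20.9%) lower, 40.9% in all. These 3 comparisons share the bulb libraries, so they are given side by side only. For Th the differences from the cerebellum, cortex and hippocampus were 5.01, 4.59 and 8.70 log2 units. For Gad1 they were 1.71, 2.0 and 2.45, for Mbp -1.30, -1.18 and -1.23, and for Neurod2 -4.84, -3.80 and -5.23. Mbp thus differed by nearly the same amount from all 3 regions, whereas Th was furthest from the hippocampus.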

How the data were processed

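Poly(A) RNA of dissected regions was extracted with TRIzol and made into libraries with a TruSeq stranded mRNA kit, per the labels' protocols. The authors deposited 1 table of whole-number read counts by gene for each library. Per the submitters' processing notes, bcl2fastq 2.17.1.14, STAR 2.5.1b, HTSeq 0.6.1p1 and the build mm9 were used; the strand setting of the counting is not given in the sources used here. The 12 knockout libraries were not used.

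Each table had 37621 features and 5 summary lines naming no gene, which entered neither library sizes nor tests. Reads in no feature made up 8.22% to 16.8% of a library, and ambiguous reads 0.576% to 0.764%. Symbols came from a GENCODE annotation of GRCm38 by gene ID (32897 matched), and no positions of counted genes are printed because the builds differ. Chi-square values between replicates of a region, divided by their degrees of freedom, were 9.62 to 46.4, so none was a copy of another.

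Counts of the 12 libraries passed through filterByExpr and TMM scaling and were fitted in 1 model of 4 group means with edgeR 4.0.16 (glmQLFit, robust) in R 4.3.3, giving 16729 genes. Benjamini-Hochberg adjustment ran over all genes, and the threshold was 0.05. CPM use the TMM-scaled library sizes. A value against a group with no count is given against a limit of 3 counts over that group, which covers counting error only. Libraries with over 100 CPM of Ttr were left out in the choroid plexus alternative. The method was tested on simulated counts.

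The named genes are up to 15 per direction with the largest difference from the nearest region (at least 5 CPM in the bulb, or in each other region for the lower genes) and up to 8 members of each list by smallest p, or any member of the bulb lists. The comparison, the 33 lists and their 428 symbols (418 tested) were chosen with earlier results of these data known. No list was tested as a set. Some genes under this rule are not reported here. Alternatives were DESeq2 1.42.0, limma-voom (limma 3.58.1), library totals, no filter, other region means, pairwise fits, a log2 threshold of 2, each library left out, and the replicate number as a block.

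The deviations of equally numbered bulb and other libraries from their group means correlated at 0.180 to 0.658 in all 9 pairs of libraries, over genes (median 0.318). The 18 unequally numbered pairs with a bulb library ranged from -0.519 to 0.213 (median -0.272), and 4 were above 0.1, so the ranges overlapped. The numbers were taken as pairs in the block fit. The labels do not say what a shared number stands for.

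In the GRCm38 annotation, 22 of the 150 genes named here have exons that overlap another counted gene, 15 of them on the opposite strand, so their counts are uncertain. Promoter windows came from a RefSeq table of GRCm38.p6, in which 117 of the named genes had an entry.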

Additional observations from a re-analysis of the deposited data

How the results depend on the processing

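Depth of at least 21.1 M counts per library left odorant receptors and other genes at a few counts uncertain, and 3 libraries per region limit every test. Raising the threshold to a log2 of 2 in each region left 269 higher and 124 lower genes. Using only the choroid-plexus-poor libraries, chosen after seeing the data and with 1 library for each other region (assumed to vary like the bulb), gave 262 genes lower than each region and 4916, 4410 and 3830 called against cerebellum, cortex and hippocampus. It ended the calls of Bpifb4, Cyp2a5, Scgb1c1, Ugt2a2, Lmx1a, Ddc, Sox11 and Cdk1. These falls come with fewer libraries.

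Leaving out 1 library gave 3039 to 4035 genes higher and 2843 to 3765 lower than the mean. Against each region the ranges were 626 to 696 higher and 378 to 419 lower. Calls against cerebellum, cortex and hippocampus were 6781 to 8106, 5999 to 7851 and 5611 to 7229, and 236 to 272 list genes were called, against 271. With the replicate numbers as pairs, in the block fit, these counts were 4417 and 4336, 688 and 413, 9009, 8948 and 8299, and 297. Among the named genes the block ended only the call of Ttr.

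Of 147 named genes that passed, 126 kept their direction and call in all 21 alternatives. The sign turned for Tbr1 with library totals (0.071) and with the cortex (1.36) or hippocampus (0.73) left out of the mean, and for Zic1 without the hippocampus (-0.43). Calls ended for Ddc without the cerebellum (0.36), for Zic1 (0.06) and Robo3 (-1.16) without the cortex, and for Epha4 (-0.32), Foxp2 (0.12), Mybpc1 (0.37), Nr4a2 (-0.29) and Robo3 (-1.05) without the hippocampus.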
